A study of Mus musculus with 12 samples.

Results

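The dystrophin-glycoprotein complex was followed here at the RNA level through 8 of its genes, *Dmd*, *Utrn*, *Dag1*, *Sgca*, *Sgcb*, *Sgcd*, *Sspn* and *Dtna*, among the 46983 genes of the expression table. The members were taken by their known place in the complex, with earlier results of these data known. RNA-Seq was performed in mouse C2C12 cells, a myoblast line whose cells fuse into myotubes after differentiation is started. The WT cells were the wild-type PB-IP group, named after the PiggyBac vector, and the PPARγ/+ cells carried the PPARγ coding sequence in that vector and had been selected with puromycin. Each cell type was collected on 0d and on 5d of differentiation with 3 libraries, which gave the groups WT_0d, WT_5d, PPARγ/+_0d and PPARγ/+_5d and 12 libraries in all. The labels and methods do not say whether the PPARγ/+ cells were 1 clone or a pool. The study calls its replicates biological, but no source used here ties each of them to a separate culture, so the p-values measure the spread between these libraries. The level of a gene is given as FPKM, the fragments on the gene scaled by the length of its exons and by library depth.

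The complex links the actin cytoskeleton of a muscle fiber to the laminin of the basement membrane. Dystrophin, or its homolog utrophin, binds actin and the cytoplasmic end of dystroglycan, dystroglycan binds laminin outside the cell, and the sarcoglycans and sarcospan brace this axis within the membrane, while dystrobrevin and the syntrophins carry signaling proteins beneath it. Loss of dystrophin causes Duchenne muscular dystrophy, and loss of single sarcoglycans causes limb-girdle muscular dystrophies.

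The 2 members with the largest ratio between 5d and 0d were *Dmd* and *Sgca*, and the sequences just upstream of their start sites are shown for that reason. They come from RefSeq (GRCm38.p6), which held a start site for 7 of the 8 members, and each runs 5′ to 3′ over the 250 bases before the start. Capitals mark the E-box (CANNTG), bound by myogenic factors such as MyoD and myogenin, the MEF2 site and the CArG box, which is bound by serum response factor, on either strand. The *Dmd* windows lie on chrX:82948620-82948869 (+), before the first base of the gene, and on chrX:85048045-85048294 (+), before an internal start, and the *Sgca* window lies on chr11:94976328-94976577 (-).
Dmd, first start: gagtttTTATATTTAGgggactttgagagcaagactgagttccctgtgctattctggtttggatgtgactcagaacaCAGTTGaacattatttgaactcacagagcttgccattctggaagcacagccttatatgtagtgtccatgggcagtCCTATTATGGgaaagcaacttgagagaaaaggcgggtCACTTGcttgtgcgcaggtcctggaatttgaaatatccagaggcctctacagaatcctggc
Dmd, internal start: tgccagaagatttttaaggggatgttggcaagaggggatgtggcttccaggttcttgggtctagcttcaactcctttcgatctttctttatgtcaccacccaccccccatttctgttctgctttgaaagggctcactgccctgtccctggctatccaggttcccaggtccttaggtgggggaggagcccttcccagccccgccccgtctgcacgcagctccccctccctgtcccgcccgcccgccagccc
Sgca: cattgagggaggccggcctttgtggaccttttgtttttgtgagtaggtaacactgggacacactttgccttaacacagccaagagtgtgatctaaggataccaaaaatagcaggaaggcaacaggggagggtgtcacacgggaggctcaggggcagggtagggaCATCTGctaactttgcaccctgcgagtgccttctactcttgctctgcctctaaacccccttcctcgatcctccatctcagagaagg

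The first *Dmd* window held E-boxes at -173 and -61, counted back from the start site, a MEF2 site at -244 and a CArG box at -98. The internal *Dmd* window held none of the 3 motifs, and the *Sgca* window held 1 E-box at -86. Among 32851 promoter windows of the same length, 66.2% held an E-box, 2.92% a MEF2 site and 1.47% a CArG box. A TATAAA match of the first *Dmd* window, on the other strand, overlapped its MEF2 site, and 12.4% of windows held such a match. The E-box with a GC core (CAGCTG, 13.0% of windows), the M-CAT element (CATTCC, 12.6%) and AGGTCA, the repeat unit of the PPAR element (14.0%), had no match in these 3 windows. The matches are descriptions of letters and not sites of binding.

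The 12 libraries held 18581300 to 26073154 mapped fragments, as worked out from the steps between the FPKM values. *Pparg* itself stood at 3.12 to 7.56 FPKM in the WT libraries and at 28.0 to 92.7 FPKM in the PPARγ/+ libraries, so the targeted gene followed the labels. The summed FPKM of 8 genes of differentiated muscle, such as *Myog*, *Ckm* and *Acta1*, was 10.6 to 106 in WT_0d and 7.53 to 23.9 in PPARγ/+_0d. It was 4271, 3262 and 963 in replicates 1, 2 and 3 of WT_5d, and 968 to 1138 in PPARγ/+_5d, so that replicate 3 of WT_5d stood apart from its group and close to the PPARγ/+_5d libraries. Values without that library are given beside the members and calls that turned on it. That library was picked out by its low sum of muscle genes. Leaving it out must therefore raise the mean of WT_5d for genes that follow this sum. The summed FPKM of 4 fibroblast markers also moved with the day, from 81.5 to 93.7 in WT_0d and 19.5 to 38.8 in PPARγ/+_0d up to 270 to 506 in WT_5d and 510 to 614 in PPARγ/+_5d. Adipocyte markers (6 genes) summed to 11.9 to 19.7 FPKM in the WT libraries, 20.5 to 27 in PPARγ/+_0d and 61.5 to 151 in PPARγ/+_5d. In WT cells this sum was mostly *Cebpa* and *Lpl*, with means of 8.20 and 5.88 FPKM on 0d and 11.3 and 4.89 on 5d. *Adipoq*, *Fabp4* and *Plin1* had at most 0.0481 FPKM in any WT library. Smooth muscle markers (4 genes) summed to 470 to 623 on 0d and 815 to 1319 on 5d. The smooth muscle sum was nearly all *Acta2*, with means of 493 and 1152 FPKM on 0d and 5d of WT cells and 514 and 864 in PPARγ/+ cells. *Smtn* also rose, but *Cnn1* fell from 0.489 to 0.0522 FPKM in WT and from 0.420 to 0.0212 in PPARγ/+ cells. *Myh11* had at most 0.0771 FPKM in any library. Myoblast markers (5 genes) summed to 41.5 to 107 FPKM in WT and 17.1 to 60.5 in PPARγ/+ cells, proliferation markers (4 genes) to 127 to 197 on 0d and 15.1 to 22.4 on 5d, and macrophage markers (4 genes) to 2.07 to 5.13. Schwann cell markers (4 genes) summed to at most 0.684 and endothelial markers (3 genes) to at most 0.115. The part of these markers in the results was not tested. In bulk RNA, fewer cells that express a gene and less RNA per cell cannot be told apart.

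Among the 8 members, dystroglycan had the highest level and dystrophin the lowest in all 4 groups. *Dag1*, which encodes both subunits of dystroglycan, averaged 48.5 ± 3.87 FPKM (SD, n = 3) in WT_0d and 81.0 ± 11.4 in WT_5d, followed in every group by *Sgcb* (β-sarcoglycan) with 18.3 ± 1.42 and 30.8 ± 1.66. *Utrn* and *Sspn* (sarcospan) came next on 0d, with ranges that were apart in WT_0d and overlapped in PPARγ/+_0d. *Sgca* (α-sarcoglycan) moved most in this order. It stood at place 6 of 8 in WT_0d, where its range overlapped that of *Dtna*, and at place 3 in WT_5d, where it overlapped *Sgcb* and *Sspn*. In PPARγ/+ cells it stood at place 7 on 0d, overlapping *Sgcd*, and at place 5 on 5d, where no 2 neighbours in the order overlapped. *Sspn* and *Utrn* overlapped in WT_5d, and *Dtna* and *Sgcd* in PPARγ/+_0d. *Sgcd* (δ-sarcoglycan) stood at place 7 in 3 groups and at place 6 in PPARγ/+_0d, with group means of 1.02 to 1.47 FPKM.

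**Figure D1:**
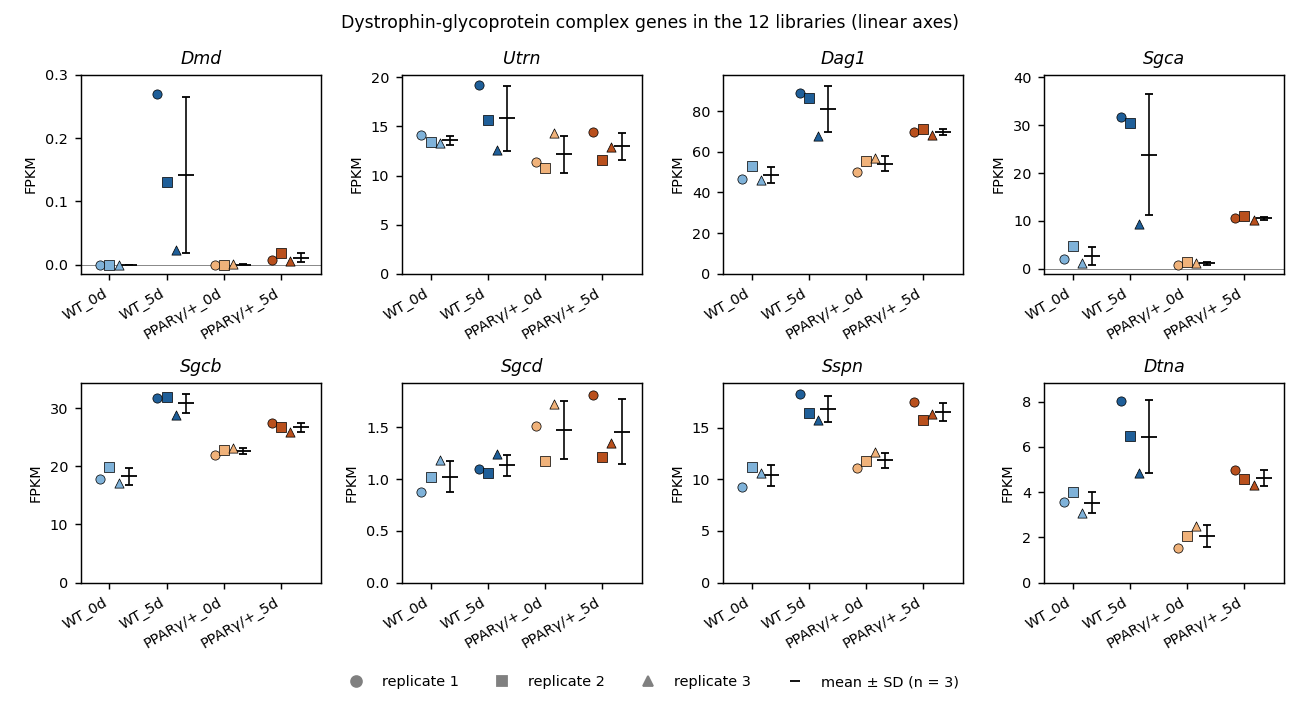
FPKM of the 8 genes of the complex in each library, with 1 panel per gene, linear axes of different height, 1 symbol per replicate and the mean ± SD (n = 3) beside each group. *Sgca* stood at 0.756 to 4.68 FPKM on 0d and at 9.29 to 31.7 on 5d, *Sgcd* overlapped between the days, and *Dmd* stayed under 0.3 FPKM in all libraries.

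*Dmd* (chrX:82948870-85206141, + strand, GRCm38) encodes dystrophin, the actin-binding protein of the complex. No fragment fell on it in the 3 libraries of WT_0d, while WT_5d had 0.269, 0.131 and 0.0240 FPKM, from 163, 60 and 13 fragments. In PPARγ/+_0d 1 library of 3 held a single fragment (0.00192 FPKM), and PPARγ/+_5d had 0.00810, 0.0195 and 0.00678 FPKM, from 4, 10 and 3 fragments. Every library on 5d was above every library on 0d, and every WT_5d library was above every PPARγ/+_5d library. Of all genes tested, which did not include *Dmd*, 20.2% in WT and 23.8% in PPARγ/+ cells had libraries apart and higher on 5d. Between the cell types on 5d, 8.31% had them apart and lower in PPARγ/+ cells. For *Dmd* the nearest libraries held 13 against 10 fragments between the cell types and 3 against 1 between the days of PPARγ/+ cells.

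Summed over the group and scaled to the mapped fragments, the level of *Dmd* was at least 78.9-fold higher in WT_5d than in WT_0d, with a floor of 3 fragments over the group at 0. Replicate 1 held 163 of the 236 fragments of WT_5d, and without it the bound was 39.2-fold; without replicate 3 it was 113-fold. In PPARγ/+ cells the ratio between 5d and 0d was 20.2 (exact 95% interval 3.17 to 845), from 17 fragments against 1, and without the PPARγ/+_0d library that held this fragment it was at least 4.70-fold. Between the cell types on 5d, WT exceeded PPARγ/+ 12.5-fold (exact 95% interval 7.64 to 21.8), but 6.21-fold without replicate 1 of WT_5d and 19.6-fold without replicate 2 of PPARγ/+_5d. The floor and the intervals cover counting error only, and the spread between the WT_5d libraries was wider. *Dmd* had at least 0.1 FPKM in only 2 libraries and so did not pass the filter of at least 0.1 FPKM in 3 libraries that the other 7 members passed. Fitted without a filter, its log2 difference between WT_5d and WT_0d was 1.13 (SE 0.42, adjusted p = 0.139 by limma with Benjamini-Hochberg adjustment). At 2.19-fold and with its unadjusted p-value within the threshold it met the rule for a call between days in that fit, and the other comparisons had adjusted p-values of 0.0942 to 0.657. The FPKM divides by the 23801 bases of all annotated exons, and the 14 annotated transcripts of *Dmd*, among them a transcript of 3690 bases from the first start and one of 1792 bases from the internal start shown above, cannot be told apart in these values.

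*Utrn* (chr10:12382188-12869365, - strand) encodes utrophin, the homolog of dystrophin. Its values were 14.1, 13.4 and 13.3 FPKM in WT_0d, 19.2, 15.7 and 12.6 in WT_5d, 11.4, 10.7 and 14.3 in PPARγ/+_0d, and 14.4, 11.6 and 12.9 in PPARγ/+_5d. The groups overlapped in all 4 comparisons. The log2 difference between 5d and 0d was 0.20 (SE 0.15, 95% interval -0.17 to 0.57, adjusted p = 0.363 by limma) in WT cells and 0.10 (SE 0.13, 95% interval -0.20 to 0.41, adjusted p = 0.549) in PPARγ/+ cells. Without replicate 3 of WT_5d the WT difference was 0.35 (adjusted p = 0.0521). The ratio of *Dmd* to *Utrn* FPKM averaged 0.00807 in WT_5d, its highest group, so utrophin RNA was by far the more abundant of the pair in every library.

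*Dag1* (chr9:108204634-108263958, - strand) was measured at 46.7, 53.0 and 46.0 FPKM in WT_0d and at 88.9, 86.2 and 67.9 in WT_5d. In PPARγ/+ cells it was 49.8, 55.6 and 56.8 on 0d and 69.8, 71.3 and 68.1 on 5d. The days did not overlap in either cell type. The level on 5d was 1.66-fold that on 0d in WT cells (log2 0.73, SE 0.12, adjusted p = 0.00564) and 1.29-fold in PPARγ/+ cells (log2 0.37, SE 0.06, adjusted p = 0.00324), both under the 2-fold that a call required.

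Across the table, 16.5% of the 18023 genes tested were called between 5d and 0d of WT cells and 15.2% in PPARγ/+ cells, where a call needed a p-value of limma, without adjustment, within the threshold of 0.05 and a difference of 2-fold or more. Higher calls made up 8.94% and 9.11% of the genes. Of the 7 members tested, 1 was called in WT cells (*Sgca*) and 2 in PPARγ/+ cells (*Sgca* and *Dtna*), all of them higher on 5d. With no demand on the fold, 5 of 7 members (*Dag1*, *Sgca*, *Sgcb*, *Sspn* and *Dtna*) were higher on 5d with adjusted p ≤ 0.05 in each cell type, against 14.1% and 18.8% of all genes. The libraries of the same 5 members were all higher on 5d than on 0d, as were those of 20.2% of all genes in WT cells and 23.8% in PPARγ/+ cells. The median log2 difference of the 7 members was 0.73 in WT and 0.37 in PPARγ/+ cells, where the median of all genes was -0.08 and -0.10. Median-ratio scaling moved the median of all genes to 0.02 in both and moved each of the 7 members upward as well.

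*Sgca* (chr11:94962791-94976327, - strand) encodes α-sarcoglycan, the sarcoglycan known to be restricted to striated muscle. In WT cells it was 2.11, 4.68 and 1.19 FPKM on 0d and 31.7, 30.5 and 9.29 on 5d. In PPARγ/+ cells it was 0.756, 1.33 and 1.27 on 0d and 10.5, 10.9 and 10.3 on 5d. Replicate 3 of WT_5d lay far under the other WT_5d libraries and just under the PPARγ/+_5d range. *Sgca* rose 8.74-fold in WT cells (log2 3.13, SE 0.63, adjusted p = 0.0104 by limma) and 9.01-fold in PPARγ/+ cells (log2 3.17, SE 0.20, adjusted p = 6.2e-05). Without replicate 3 of WT_5d the WT log2 difference was 3.71 (adjusted p = 0.00623).

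*Sgcb* (chr5:73632749-73647790, - strand) encodes β-sarcoglycan, which is found in many tissues. Its values were 17.8, 19.9 and 17.2 FPKM in WT_0d, 31.7, 31.9 and 28.9 in WT_5d, 22.0, 22.8 and 23.1 in PPARγ/+_0d, and 27.4, 26.7 and 26 in PPARγ/+_5d. The order of the groups was WT_0d, PPARγ/+_0d, PPARγ/+_5d and WT_5d, with no overlap between any neighbours. The level on 5d was 1.68-fold that on 0d in WT cells (log2 0.75, SE 0.08, adjusted p = 0.00126) and 1.18-fold in PPARγ/+ cells (log2 0.23, SE 0.05, adjusted p = 0.00661).

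*Sgcd* (chr11:46896253-47988969, - strand) encodes δ-sarcoglycan, the direct partner of β-sarcoglycan in the assembly of the complex. It was 0.874, 1.02 and 1.18 FPKM in WT_0d, 1.10, 1.05 and 1.24 in WT_5d, 1.51, 1.18 and 1.73 in PPARγ/+_0d, and 1.82, 1.21 and 1.35 in PPARγ/+_5d. The days overlapped in both cell types, with a log2 difference of 0.14 (SE 0.18, 95% interval -0.28 to 0.56, adjusted p = 0.577) in WT cells and -0.01 (SE 0.20, 95% interval -0.50 to 0.47, adjusted p = 0.961) in PPARγ/+ cells. Median-ratio scaling turned the sign of the latter, to 0.11. The ratio of *Sgca* to *Sgcd* FPKM was 2.41, 4.60 and 1.01 in WT_0d and 28.9, 28.9 and 7.46 in WT_5d. In PPARγ/+ cells it was 0.501 to 1.13 on 0d and 5.80 to 9.03 on 5d.

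*Sspn* (chr6:145931641-145965223, + strand) encodes sarcospan, a membrane protein bound to the sarcoglycans. It was 9.23, 11.2 and 10.7 FPKM in WT_0d and 18.3, 16.4 and 15.8 in WT_5d, and 11.1, 11.8 and 12.6 in PPARγ/+_0d and 17.5, 15.7 and 16.3 in PPARγ/+_5d. The 2 days were apart in each cell type and the cell types overlapped on each day. The level on 5d was 1.62-fold that on 0d in WT cells (log2 0.69, SE 0.10, adjusted p = 0.00338) and 1.39-fold in PPARγ/+ cells (log2 0.48, SE 0.07, adjusted p = 0.00166). Its exons share 69 bases with the antisense gene *Sspnos*, which had at most 0.439 FPKM.

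*Dtna* encodes α-dystrobrevin, which binds dystrophin and the syntrophins. It was 3.55, 4.0 and 3.06 FPKM in WT_0d and 8.06, 6.47 and 4.84 in WT_5d, and 1.54, 2.07 and 2.51 in PPARγ/+_0d and 4.99, 4.56 and 4.32 in PPARγ/+_5d. The days were apart in both cell types. *Dtna* rose 2.24-fold in PPARγ/+ cells (log2 1.17, SE 0.17, adjusted p = 0.00177 by limma), but with a pseudocount of 1 FPKM (log2 0.90) or without replicate 1 of PPARγ/+_0d (log2 0.99) it fell short of 2-fold. In WT cells the level on 5d was 1.78-fold that on 0d (log2 0.83, SE 0.20, adjusted p = 0.0210), and without replicate 3 of WT_5d the log2 difference was 1.02 (adjusted p = 0.00769), which passed 2-fold. The exons of *Dtna* share 90 bases with the antisense gene *Gm47898*, and reads of such pairs cannot be told apart where strand was not used.

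**Figure D2:**
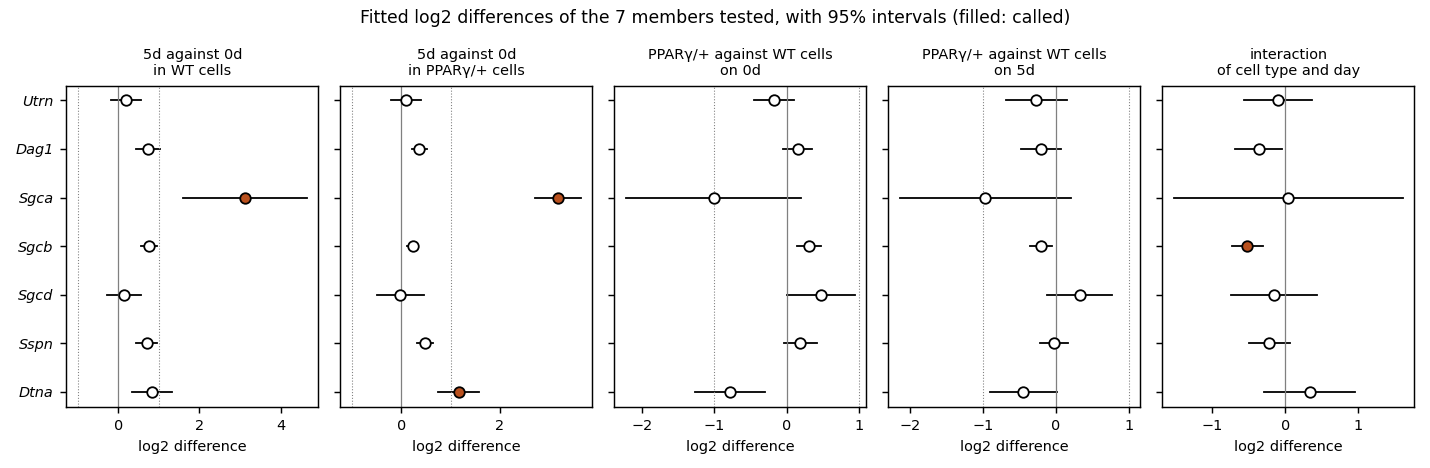
Fitted log2 differences of the 7 members tested (points) with 95% intervals (lines), in 1 panel per comparison; filled points were called and dotted lines mark a 2-fold difference. *Sgca* stood past 2-fold between the days in both cell types, *Dtna* in PPARγ/+ cells, and *Sgcb* was the member called in the interaction.

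Whether the overexpression of PPARγ altered the levels on a given day was asked by comparing PPARγ/+ with WT cells. On 0d, 1.59% of all genes were called, here with adjusted p ≤ 0.05 and a difference of 2-fold or more, and none of the 7 members was by limma. With unadjusted p ≤ 0.05 stood 3 of 7 members (*Sgcb*, *Sgcd* and *Dtna*), against 21.7% of all genes. *Sgcb* was 1.24-fold higher in PPARγ/+_0d (log2 0.31, SE 0.07, adjusted p = 0.0675), with libraries apart as for 13.7% of genes. *Dtna* was 1.72-fold lower (log2 -0.78, SE 0.20, adjusted p = 0.0930), with libraries apart as for 13.1%. *Sgcd* had a log2 difference of 0.48 (SE 0.19, adjusted p = 0.228) and *Sgca* of -1.01 (SE 0.50, 95% interval -2.23 to 0.21, adjusted p = 0.298), both with overlapping libraries.

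On 5d, 0.155% of all genes were called and again none of the 7 members. With unadjusted p ≤ 0.05 stood 1 of 7 members, *Sgcb*, against 12.7% of all genes. Its level was 1.15-fold lower in PPARγ/+_5d (log2 -0.21, SE 0.06, adjusted p = 0.270), with libraries apart as for 8.31% of genes. *Sgca* had a log2 difference of -0.97 (SE 0.48, 95% interval -2.14 to 0.20, adjusted p = 0.450 by limma). This value turned on 1 library, since without replicate 3 of WT_5d it was -1.55 with an adjusted p-value of 0.00514, and with array weights, which give a deviating library less weight, it was -1.35 (adjusted p = 0.0438). Without that library 723 genes of the table were called in place of 28. *Dag1* went from -0.21 (adjusted p = 0.484) to -0.33 (adjusted p = 0.0203) and *Dtna* from -0.44 (adjusted p = 0.409) to -0.63 (adjusted p = 0.0425) when it was left out, both under 2-fold. *Sspn* differed by -0.02 (SE 0.08, 95% interval -0.21 to 0.17).

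**Figure D3:**
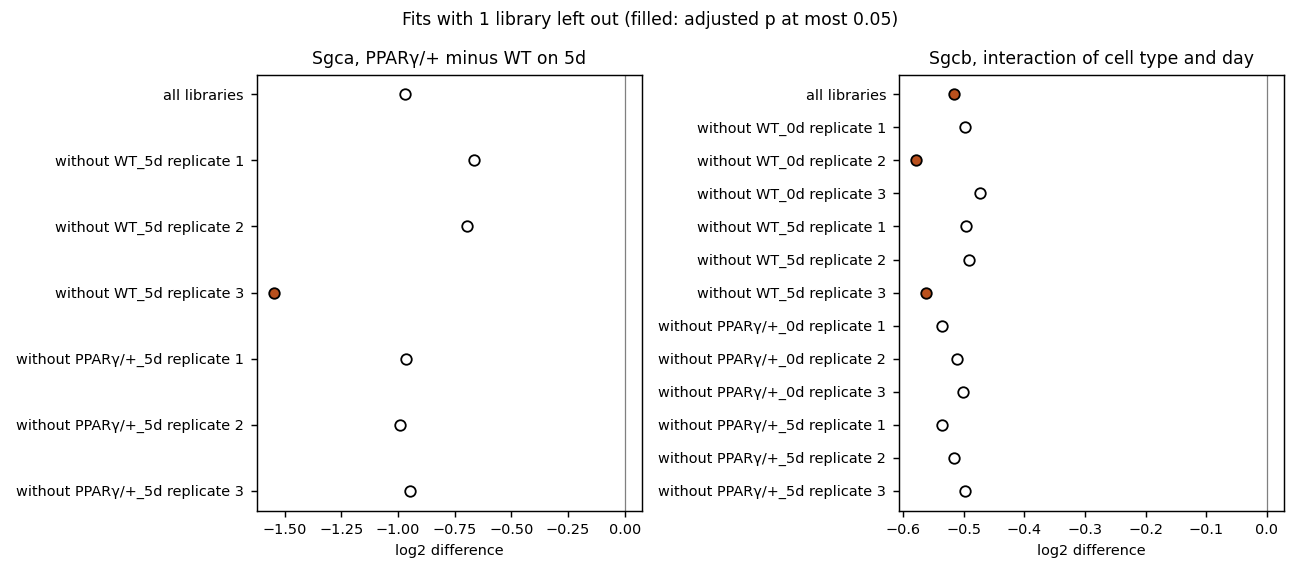
Fitted log2 difference with all libraries (top) and with 1 library left out at a time, for *Sgca* between PPARγ/+ and WT cells on 5d (left) and for *Sgcb* in the interaction (right); filled points had adjusted p ≤ 0.05. *Sgca* moved from -0.97 to -1.55 without replicate 3 of WT_5d, and *Sgcb* stayed between -0.58 and -0.47.

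The interaction of cell type and day asked whether the difference between 5d and 0d was itself different in PPARγ/+ cells. It was called, with adjusted p ≤ 0.05, for 0.76% of all genes and for 1 of 7 members, *Sgcb*, while 2 of 7 (*Sgcb* and *Dag1*) had unadjusted p ≤ 0.05, against 12% of all genes. The log2 difference between the days was smaller in PPARγ/+ than in WT cells by 0.52 for *Sgcb* (coefficient -0.52, SE 0.10, 95% interval -0.73 to -0.31, adjusted p = 0.0385 by limma). Its call was lost with median-ratio scaling (adjusted p = 0.0935), quantile normalization (adjusted p = 0.0613) and in 10 of the 12 fits that left out 1 library. *Dag1* had a coefficient of -0.36 (SE 0.14, adjusted p = 0.344), and without replicate 3 of WT_5d it was -0.48 (adjusted p = 0.0397). For *Sgca* the coefficient was 0.04 with an SE of 0.71 and a 95% interval of -1.52 to 1.61, and it turned to -0.53 without replicate 3 of WT_5d (adjusted p = 0.709). The coefficients of the other 4 members tested were -0.21 (*Sspn*), -0.15 (*Sgcd*), -0.09 (*Utrn*) and 0.34 (*Dtna*), with adjusted p-values of 0.562 to 0.902. For *Dmd* without the filter it was -0.99 (SE 0.42, adjusted p = 0.482).

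Further subunits and partners of the complex were read from a list of 20 genes, of which 16 were tested. In WT cells 6 rose and 1 fell from 0d to 5d, and in PPARγ/+ cells 9 rose and 1 fell, with medians of 1.04 and 1.21 on the log2 scale. These calls made up 43.8% and 62.5% of the list genes tested, against 16.5% and 15.2% of all genes. This list and those read below were written by hand with earlier results of these data known, so their shares may reflect that choice. *Sgce* (ε-sarcoglycan, which can stand in for α-sarcoglycan outside striated muscle) was not called, with log2 differences of 0.30 in WT and 0.43 in PPARγ/+ cells. The ratio of *Sgca* to *Sgce* FPKM was 0.298 to 1.03 in WT_0d, 6.60, 6.13 and 1.62 in WT_5d, 0.181 to 0.256 in PPARγ/+_0d and 1.37 to 1.73 in PPARγ/+_5d.

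*Cav3* (caveolin-3, a membrane protein of muscle that binds dystroglycan) rose by 5.18 and 4.09, *Nos1* (the nitric oxide synthase anchored by syntrophin) by 2.78 and 2.10, and *Sntb1* (β1-syntrophin) by 1.90 and 2.66, each on the log2 scale in WT and PPARγ/+ cells. For *Sntb1* the WT days overlapped and its adjusted p-value there was 0.060. Without replicate 3 of WT_5d the WT difference of *Sntb1* was 2.60 (adjusted p = 0.00644 by limma). *Lama2*, which encodes the laminin chain bound by dystroglycan, rose by 1.99 in PPARγ/+ cells (adjusted p = 3.7e-04) and had a difference of 1.13 with overlapping libraries in WT cells (adjusted p = 0.107, not called), which was 1.58 (adjusted p = 0.0272) and called without replicate 3 of WT_5d. *Krt19*, a keratin that links dystrophin to the contractile apparatus, fell by 2.81 and by 2.33, and was also lower in PPARγ/+_0d than in WT_0d (log2 -1.15, adjusted p = 0.0267). *Des* (desmin) was the other list gene called between the cell types on 0d (log2 -1.41, adjusted p = 0.0290), and it was named after its value was seen. *Dtnb* (β-dystrobrevin) was not called, with log2 differences of -0.11 in WT and -0.19 in PPARγ/+ cells.

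The enzymes that build the laminin-binding glycan of dystroglycan gave few calls. Of 18 such genes 17 were tested, and 1 rose in each cell type, *Pomgnt2*, by 1.14 and 1.02 on the log2 scale, a call that a pseudocount of 1 FPKM removed in both. Without replicate 3 of WT_5d its WT difference was 0.92 and no gene of the list (0 of 17) was called. With all libraries the call of *Pomgnt2* made up 5.88% of the list in each cell type, under the 16.5% and 15.2% of all genes. *Pomt1*, which starts the glycan, had log2 differences of -0.75 (adjusted p = 0.00189) and -0.72 (adjusted p = 3.3e-04), both under 2-fold. The list's median was 0.20 in both cell types.

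The integrin and vinculin linkage, which ties the muscle membrane to the matrix beside the dystroglycan axis, was read from 14 genes, all of them tested. In each cell type 3 rose, which is 21.4% of the list, against 16.5% and 15.2% of all genes called. Among them were *Ldb3* (a Z-disc protein), by 1.66 and 1.20, and *Itga7* (the laminin-binding integrin of muscle), by 1.4 and 1.90. The WT days of *Itga7* overlapped (adjusted p = 0.0465 by limma). Without replicate 3 of WT_5d the WT differences of *Ldb3* and *Itga7* were 2.16 and 1.87. The medians of the list were 0.26 and 0.33. With all libraries no gene of either of these 2 lists was called between the cell types on a day or in the interaction.

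Leaving out replicate 3 of WT_5d altered the comparison of the cell types on 5d for the partners as it did for *Sgca*. For the list genes only the fits without this library are given. It had been picked out by its low sum of muscle genes, so a wider gap in such genes without it is in part set by that choice. Without it 4 of the 16 further subunits and partners and 3 of the 14 integrin and vinculin genes were called in place of 0 and 0, against 723 of all 18023 genes. *Cav3* went from -2.04 to -2.82 (adjusted p = 0.00736), *Krt19* from -0.67 to -1.56 (adjusted p = 0.0284), *Ldb3* from -0.65 to -1.15 (adjusted p = 0.0324) and *Itga7* from -0.54 to -1.01 (adjusted p = 0.0168), all on the log2 scale and lower in PPARγ/+ cells. In the interaction 1 gene of each of these lists was called without it, among them *Ldb3* (-0.96, adjusted p = 0.0282), and none of the glycan enzymes was called in either comparison. Over all 18023 genes the interaction calls went from 137 to 527. Of the partner genes in WT cells, 10 in place of 7 were called between the days, against 3057 in place of 2970 of all genes.

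**Figure D4:**
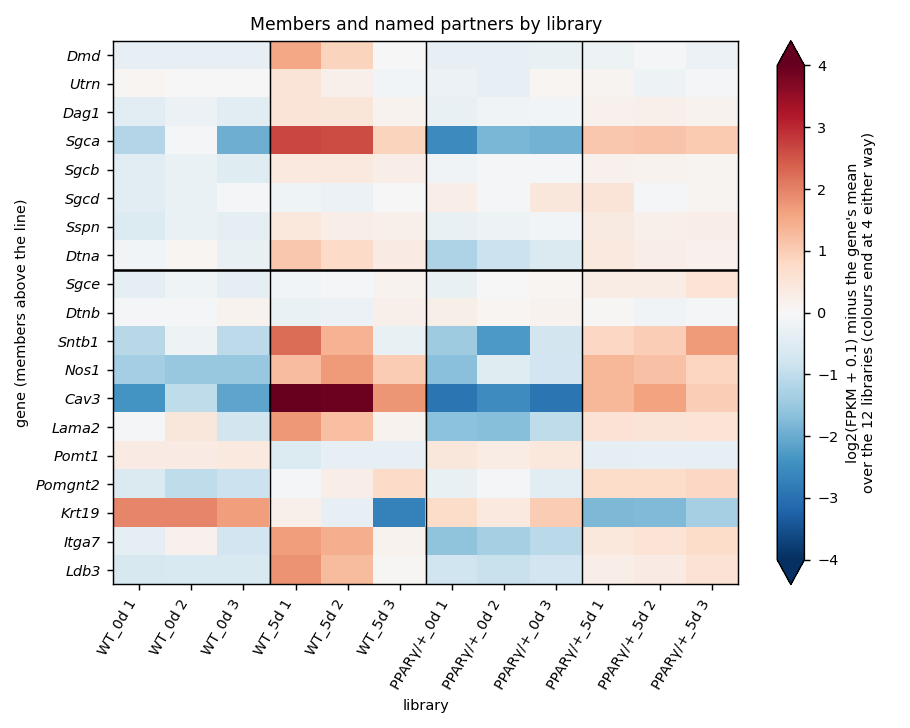
log2(FPKM + 0.1) minus the mean of the gene over the 12 libraries (color, ending at 4 in either direction), with the 8 members above the line, the named partners below it and the libraries in columns by group. *Sgca* and *Cav3* went from low on 0d to high on 5d in both cell types, both were paler in replicate 3 of WT_5d than in the other WT_5d libraries, and *Sgcd*, *Utrn* and *Dtnb* stayed near their means.

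The genes whose pattern over the 12 libraries was most like that of each member were ranked among 11681 genes by Pearson's r of log2(FPKM + 0.1), as a description in which the points share their libraries and the step from 0d to 5d. For *Sgca* they were *Ryr1* (r = 0.993), *Dapk2* (0.992) and *Myl1* (0.992), for *Dag1* *Plpp7* (0.992), *Rap1gap2* (0.987) and *Vamp5* (0.986), and for *Sgcb* *Klhl5* (0.993), *Paxx* (0.98) and *Coq10a* (0.978). For *Sspn* they were *Ldlrad4* (0.985), *Cilp* (0.976) and *Slc25a35* (0.975), and for *Dtna* *Sema3d* (0.982), *Enpp1* (0.976) and *Chrnb1* (0.974). For *Dmd* they were *Atp2a2* (0.977), *Pstpip1* (0.972) and *Uqcc1* (0.972). *Dmd* stood above 0.1 FPKM only in replicates 1 and 2 of WT_5d (0.269 and 0.131 FPKM). Every other library had at most 0.0240 FPKM, so its r values rest mainly on those replicates. *Utrn* (*Wnk1* 0.934, *Herc1* 0.916, *Fsd1l* 0.887) and *Sgcd* (*Adal* 0.901, *Krcc1* 0.878, *Uggt2* 0.867) had lower values. Among the members themselves, the highest values were 0.959 for *Dag1* and *Sgcb*, 0.944 for *Sgca* and *Dtna* and 0.939 for *Dag1* and *Sspn*, while *Sgcd* was between -0.289 and 0.309 with the other 7 members.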

How the data were processed

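RNA-Seq libraries of C2C12 cells were made with the TruSeq kit and sequenced as pairs on an Illumina platform. According to the methods, the authors used Trim Galore for trimming, STAR for alignment to GRCm38, HTSeq for counts on Ensembl genes and DESeq2 for their own tests, and calculated FPKM from the counts; the submitters' processing notes name mm9 as the build, while whole fragment numbers followed from GRCm38 gene lengths. The values analysed were the deposited FPKM per gene and library. A second deposited table holds log2 values of the same FPKM, differed from log2(FPKM + 1) by at most 5.3e-14 and was not analysed further.

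Mapped fragments and fragments per gene were recovered from the steps between FPKM values, which gave whole numbers (tolerance 0.001) with the annotated length for 21058 of 27138 genes above 0. For *Utrn* and *Dtna* the length was inferred as 12382 and 6587 bases. Depth sets the floor of 3 fragments.

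limma 3.58.1 (R 4.3.3, empirical Bayes with trend) was fitted on log2(FPKM + 0.1) of the 18023 genes with at least 0.1 FPKM in 3 libraries or more, on the 6 libraries of a comparison or, for the interaction, on all 12. Differences are on that scale, which understates those of low genes, and adjusted p-values (Benjamini-Hochberg) cover all genes tested. Calls between days used the unadjusted p-value, as in the study. The fit was tested on simulated data, with 100 genes changed 4-fold and 100 changed 8-fold: between the days of WT cells it called 97% and 100% of them and 1.03% of the unchanged among 17358 genes, and in the interaction 93%, 99% and 0.0465% among 17389. The simulated noise was normal with a spread per gene pooled over all groups, and the changed genes averaged at least 1 FPKM. These shares therefore do not cover the wider spread between the WT_5d libraries or genes of lower level. Named were all 8 members, the 3 genes of each list with the largest called difference in WT cells, 12 partners set by name and the 3 genes most like each member; some list genes are not reported here. Members and lists were chosen with earlier results of these data known. Promoter sequences are those of RefSeq and gene positions those of GENCODE on GRCm38. Alternatives were other pseudocounts, filters, scalings, thresholds, weights and fits, a replicate block and leaving out each library. For *Dmd* the last was added after seeing the data. Leaving out replicate 3 of WT_5d, the only library left out for the list genes, was also added then.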

Additional observations from a re-analysis of the deposited data

Results flagged for a closer look

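For *Sgcb* the difference between 5d and 0d was itself different in the 2 cell types by the test of the interaction itself, with a coefficient of -0.5166 on the log2 scale (PPARγ/+ change minus WT change, adjusted p = 0.0385 by limma over 18023 genes). Its mean was 18.3 and 30.8 FPKM on 0d and 5d of WT cells and 22.7 and 26.7 FPKM in PPARγ/+ cells, where neither day's difference between the cell types passed the adjusted threshold (adjusted p = 0.0675 on 0d and 0.270 on 5d). The adjusted p-value lay between 0.0118 and 0.123 when 1 library was left out, and it was 0.0935 with median-ratio scaling, 0.0613 with quantile normalization and 0.0666 with the replicate block.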

How the results depend on the processing

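All settings set out in the methods were run. Of the differences of single members under all alternatives, 526 kept their direction and side of the threshold, 15 lost the threshold, 5 gained it and 14 changed sign. Counts of members called moved as follows. Between the days of WT cells 1 member was called, and 2 without the filter (*Sgca* and *Dmd*); leaving out single libraries gave 1 to 2. In PPARγ/+ cells 2 were called, 1 with a pseudocount of 1 FPKM and 1 to 2 with a library left out. Between the cell types on 5d none was called, 1 with array weights (*Sgca*) and 0 to 1 with a library left out. In the interaction 1 was called, 2 at an unadjusted p-value or with array weights (*Sgcb* and *Dag1*), none (0) with median-ratio scaling, quantile normalization or the replicate block, and 0 to 2 with a library left out.

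Signs turned for *Sgcd* between the days of PPARγ/+ cells (0.11 with median-ratio scaling, -0.17 to 0.10 with a library left out) and for *Sspn* between the cell types on 5d (-0.069 to 0.036 with a library left out). In the interaction they turned for *Sgca* (-0.23 with a pseudocount of 1 FPKM, -0.60 with array weights, -0.53 to 0.49 with a library left out) and *Utrn* (-0.25 to 0.056 with a library left out). None of these was called, and the cause was not tested.

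Over all genes, a pseudocount of 1 FPKM gave 1441 calls in place of 2970 between the days of WT cells and 1241 in place of 2735 in PPARγ/+ cells, where a filter at 1 FPKM gave 1806. Between the cell types on 0d 287 calls became 661 at an unadjusted p-value, 115 with a pseudocount of 1 FPKM, 107 without the filter and 55 to 137 with a library left out. On 5d 28 became 606 at an unadjusted p-value, 8 and 71 with pseudocounts of 1 and 0.01 FPKM, 199 with all 12 libraries in one fit, 502 with array weights and 1 to 723 with a library left out. In the interaction 137 became 2164 at an unadjusted p-value, 2070 with array weights and 42 to 527 with a library left out.

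Replicate numbers did not pair the libraries: same-numbered libraries of different groups correlated in their deviations at -0.0678 to 0.0834 over 18 pairs. With the number as a replicate block the calls over all genes were 0 on 0d, 0 on 5d and 61 in the interaction, with 2755, 2001 and 2004 genes with unadjusted p ≤ 0.05, and *Sgcb* had a coefficient of -0.5166 (adjusted p = 0.0666). Depth limits *Dmd*, whose groups on 0d held 0 and 1 fragments.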
